A study of Mus musculus with 12 samples.

Results

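The 39 Hox genes of the mouse were examined for SOX2 binding in embryonic stem cells. They are all protein-coding genes of the RefSeq annotation whose symbol is Hox, one of the letters a to d and a number, and they are 39 of 21887 protein-coding genes. They lie in 4 clusters: 11 genes of HoxA on chromosome 6, 10 of HoxB on chromosome 11, 9 of HoxC on chromosome 15 and 9 of HoxD on chromosome 2. The study mapped SOX2, a transcription factor of pluripotent cells, by chromatin immunoprecipitation and sequencing (ChIP-seq) in E14, a mouse embryonic stem cell line. Its 12 libraries were 3 SOX2 ChIP and 3 input libraries from asynchronous cells and the same from mitotic cells. All of them came from cells grown with 10% serum, leukemia inhibitory factor, CHIR99021 at 3 μM, an inhibitor of GSK3, and PD184352 at 0.8 μM, an inhibitor of MEK. The mitotic group was in addition held overnight in nocodazole, which blocks the spindle, and sorted for H3S10p, a histone mark of condensed chromosomes. The asynchronous group was not sorted by cell cycle stage. Peaks of a condition were called after its replicates were pooled, which gave 10351 asynchronous and 84 mitotic regions, so counts carry no replicate error and no test between conditions was made. Peak positions give no expression level, so the labelled cell type was not checked against markers.

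Hox genes encode homeodomain transcription factors that give cells their position along the body axis. In each cluster the genes are transcribed in the same direction, and those with low numbers, at the 3′ end, are switched on earlier and further to the head than those with high numbers. Genes of the same number in different clusters are paralogues. In embryonic stem cells the clusters are known to be largely silent and covered by Polycomb proteins, and retinoic acid and Wnt signals open them from the low-numbered end.

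Asynchronous SOX2 regions were found inside 3 of the 4 clusters. A cluster is taken here from the outer end of its first to the outer end of its last Hox gene, and a region counts with an overlap of at least 1 bp. HoxA (chromosome 6, 52155367 to 52260880, 105.5 kb) and HoxC (chromosome 15, 102921131 to 103036856, 115.7 kb) held 2 regions each. HoxD (chromosome 2, 74668225 to 74765142, 96.92 kb) held 1, and HoxB (chromosome 11, 96194316 to 96368254, 173.9 kb) held none. These 5 regions in 0.492 Mb make 10.2 per Mb (exact 95% Poisson interval 3.30 to 23.7, which covers counting error only), beside 4.17 per Mb over all autosomes. Within 50 kb of the cluster ends, the clusters included, there were 8 regions: 4 at HoxA, 2 at HoxC and 1 each at HoxB and HoxD.

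The wider windows, the clusters included, held more regions but at a density similar to the 10.2 per Mb inside the clusters. Within 500 kb there were 43 asynchronous regions, 9.57 per Mb (6.93 to 12.9), or 2.30 times the autosomal density. HoxA had 15, at 13.6 per Mb (7.59 to 22.4), and its interval lay above the 4.56 per Mb of chromosome 6. HoxB had 11, at 9.37 per Mb (4.68 to 16.8), HoxD 9, at 8.20 per Mb (3.75 to 15.6), and HoxC 8, at 7.17 per Mb (3.10 to 14.1). The intervals of these 3 clusters included the densities of their own chromosomes, which were 5.39, 4.56 and 4.19 per Mb. Without HoxA there were 28 regions within 500 kb and 4 within 50 kb.

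**Figure D1:**
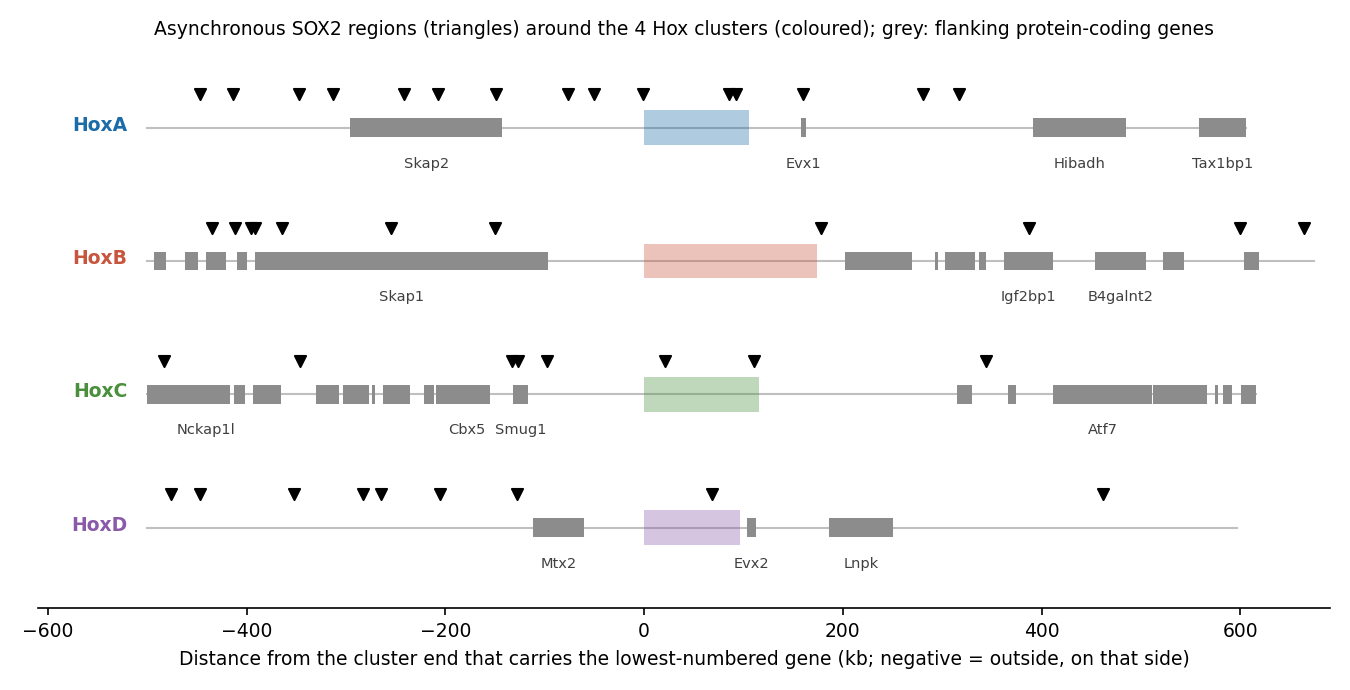
Each row is a Hox cluster (coloured box) with 500 kb on either side, drawn from the end that carries the lowest-numbered gene (0 on the axis, in kb); triangles are asynchronous SOX2 regions and grey boxes flanking protein-coding genes. The 15 regions of HoxA reach into the cluster, while the box of HoxB holds none.

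At HoxA, both regions inside the cluster lay towards its high-numbered end. The region on chromosome 6 at 52240243 to 52240606 (364 bp) lay inside Hoxa10, which patterns the posterior axis and the uterus, 0.429 kb from the gene's start. A further one at 52248019 to 52248333 (315 bp) lay between Hoxa11 and Hoxa13, both genes of limb and genital development, on the antisense RNA gene Hoxa11os and 2.37 kb from Hoxa11. From the region in Hoxa10 towards the low-numbered genes, the list was empty for 85.8 kb, a stretch that contains 8 whole genes, Hoxa9 the nearest of them. A further region, 459 bp wide with 2 listed summits, lay 49.8 kb outside the cluster on Halr1 (52105092 to 52105550). Halr1 is a long noncoding RNA gene also known as Haunt, whose locus is known to affect HoxA activation by retinoic acid.

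No genome sequence was used here, but RefSeq promoter sequences (build GRCm38.p6) show the bases beside some of these regions. The windows printed are the 250 bases before a start site, chosen because they overlap a region or, for Hox genes, come within 1 kb of one. Capitals mark ACAAT or its reverse complement, the core that SOX proteins bind, which 27.7% of 32851 such windows of all genes hold. The window of Hoxa10, on the minus strand at chr6:52240855-52241104, ends 249 bp from the region inside that gene and has no such core.
Hoxa10: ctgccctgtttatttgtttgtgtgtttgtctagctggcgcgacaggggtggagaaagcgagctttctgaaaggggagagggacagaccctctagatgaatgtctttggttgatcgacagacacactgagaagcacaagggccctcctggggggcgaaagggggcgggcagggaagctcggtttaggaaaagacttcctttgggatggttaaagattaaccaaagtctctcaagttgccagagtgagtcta
The window of Evx1os, on the minus strand at chr6:52314833-52315082, has 247 of its 250 bases inside a region of 495 bp at 52314585 to 52315079. That region lies 53.7 kb beyond Hoxa13, inside Evx1, a homeobox gene of the primitive streak at the end of the cluster, and the window holds 1 core.
Evx1os: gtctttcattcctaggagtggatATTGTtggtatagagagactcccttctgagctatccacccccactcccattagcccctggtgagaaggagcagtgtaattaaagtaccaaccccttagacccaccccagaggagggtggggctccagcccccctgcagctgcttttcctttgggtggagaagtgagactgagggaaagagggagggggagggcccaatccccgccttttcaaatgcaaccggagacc

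At HoxC, both regions lay inside Hox genes. The region in Hoxc13, a gene of hair and nail formation, was at chromosome 15, 102926405 to 102926691, 287 bp wide and 2.27 kb from the nearer end of the gene. The region in Hoxc5 was at 103015711 to 103016109, 399 bp wide and 1.52 kb from the nearer end. Hoxc4 and Hoxc6, the neighbours of Hoxc5, had their nearest region 2.19 kb and 4.03 kb away, which is the same region. Hoxc13 to Hoxc5 left an interval of 89.0 kb with the 6 genes Hoxc12 to Hoxc6, and no peak number is missing from the list between the 2 regions. Outside the cluster, 3 regions had Smug1, a DNA repair enzyme, as their nearest gene, and the one inside it (103163232 to 103163454, 223 bp) covers 170 bases of the window before a Smug1 start site, on the minus strand at chr15:103163285-103163534. It is shown because it is the only other window of the surroundings that a region reaches, and it has 1 core.
Smug1: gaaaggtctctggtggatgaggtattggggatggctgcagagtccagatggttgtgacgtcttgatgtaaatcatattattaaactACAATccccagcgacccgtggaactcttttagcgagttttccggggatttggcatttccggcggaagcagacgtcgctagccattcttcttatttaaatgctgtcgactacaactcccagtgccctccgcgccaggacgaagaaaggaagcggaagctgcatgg

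At HoxD, the single region within the cluster (chromosome 2, 74696614 to 74696921, 308 bp) lay between Hoxd10 and Hoxd9, both active in the posterior axis and the limb. Its midpoint was 0.996 kb from Hoxd9 and 1.66 kb from Hoxd10. Hoxd8 and Hoxd11 had the same region as their nearest, 7.85 and 9.75 kb away. Hoxd13 and Hoxd1, the outer genes, were 25.2 and 66.2 kb from a region. The window before Hoxd9, on the plus strand at chr2:74697513-74697762, lies 592 bp from the region and has no ACAAT core.
Hoxd9: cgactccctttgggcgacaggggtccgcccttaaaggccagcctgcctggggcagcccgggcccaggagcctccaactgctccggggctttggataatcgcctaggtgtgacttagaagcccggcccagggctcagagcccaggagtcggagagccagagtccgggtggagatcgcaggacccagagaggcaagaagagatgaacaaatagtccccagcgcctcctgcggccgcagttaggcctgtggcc

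HoxB stood at the other end of the range. Its only region within 50 kb was a wide one (532 bp, wider than about 93.5% of the list by rank) at chromosome 11, 96190103 to 96190634, 3.68 kb outside the cluster and 3.95 kb from Hoxb13, a gene of the tail and prostate. From there to the next region, in Skap1, the list was empty for 328 kb, a stretch that contains all 10 HoxB genes. That interval ranked at percentile 78.8 of the 10330 intervals between neighbouring asynchronous regions, whose median was 114 kb. A longer one, of 393 kb at percentile 83.2, lay at HoxD and contains the 4 genes Hoxd10 to Hoxd13. At the autosomal density a stretch of the length of HoxB would hold 0.725 regions. The count of 0 in HoxB, which allows up to 17.2 per Mb by the limit of 3 counts, was thus not distinguishable from that density. Hoxb9, the next gene after Hoxb13, was 81.0 kb from its nearest region, and Hoxb1, the last, 150 kb.

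By gene, 29 of the 39 Hox genes (74.4%) had the midpoint of an asynchronous region within 50 kb of the gene, where 45.5% of all 21887 protein-coding genes did. The share came from all 11 HoxA genes, all 9 HoxC genes, 8 of 9 HoxD genes and 1 of 10 HoxB genes. These genes share their regions: the 29 genes were near 7 distinct regions, so they are not 29 independent observations, and no test was made. When each region counted only for its nearest gene, the direction turned, with 7 of 39 Hox genes (17.9%) against 23.1% of all genes. Within 10 kb there were 13 genes (33.3%, against 23.8% of all genes). Among them were Hoxa2, Hoxa10, Hoxa11, Hoxb13, Hoxc4, Hoxc5, Hoxc6, Hoxc13, Hoxd8, Hoxd9, Hoxd10 and Hoxd11. Within 20 kb there were 19 (48.7%, against 30.4%) and within 100 kb 33 (84.6%, against 62.4%). Only Hoxa10, Hoxc5 and Hoxc13 (7.69%, against 14.7% of all genes) had a midpoint inside the gene itself. Hox genes are short, with a median length of 3.74 kb against 17.2 kb for all protein-coding genes. Whether length bears on the share inside was not tested.

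**Figure D2:**
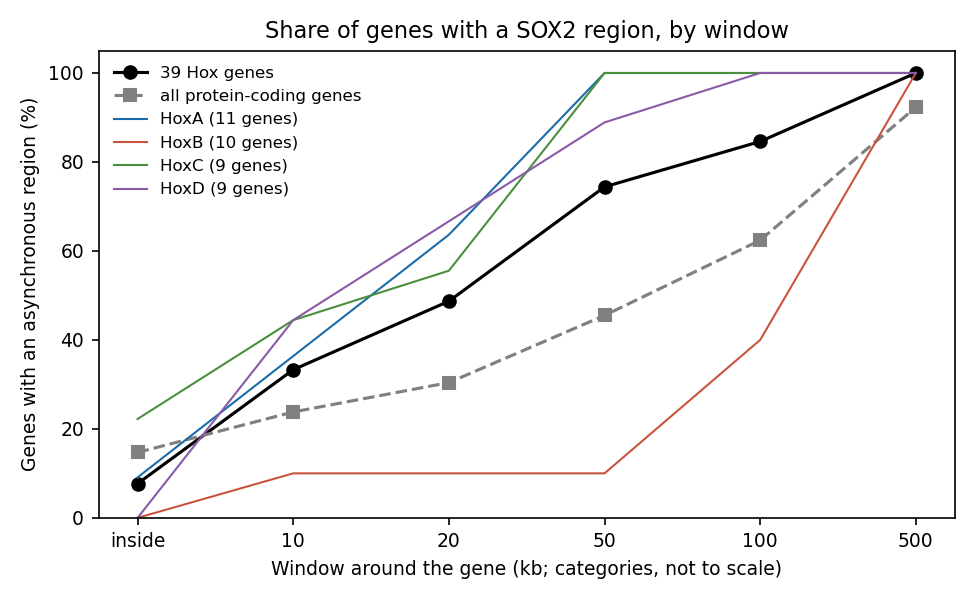
The share of genes with an asynchronous region (percent) is plotted against the window around the gene, inside the gene or within 10 to 500 kb; black is all 39 Hox genes, grey all protein-coding genes and colours the 4 clusters. At 50 kb the Hox share is 74.4% against 45.5%, and HoxB is the only cluster below the grey line there.

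The distance to the nearest region had a median of 21.6 kb over the Hox genes and 62.0 kb over all protein-coding genes. It was 13.1 kb for HoxA (0 to 35.8 kb), 10.3 kb for HoxC (0 to 40.2 kb), 15.2 kb for HoxD (0.996 to 66.2 kb) and 108 kb for HoxB (3.95 to 161 kb). HoxA, HoxC and HoxD overlapped in these distances, and every HoxB gene but Hoxb13 was further from a region than any gene of the other clusters. Hoxa13, at the outer end of HoxA, was 10.7 kb away. By position in the cluster, a region within 50 kb was found for 15 of the 16 genes with the numbers 9 to 13, for 10 of the 15 in the middle (4 to 8) and for 4 of the 8 with the numbers 1 to 3. The exception among the high numbers was Hoxb9. Of the 10 genes without a region, 9 were HoxB genes, and without HoxB the counts were 14 of 14, 10 of 10 and 4 of 5, so the order by position rested on that cluster. All 4 genes of number 13 had one, as did all 3 of number 10, all 3 of number 11 and both of number 12.

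**Figure D3:**
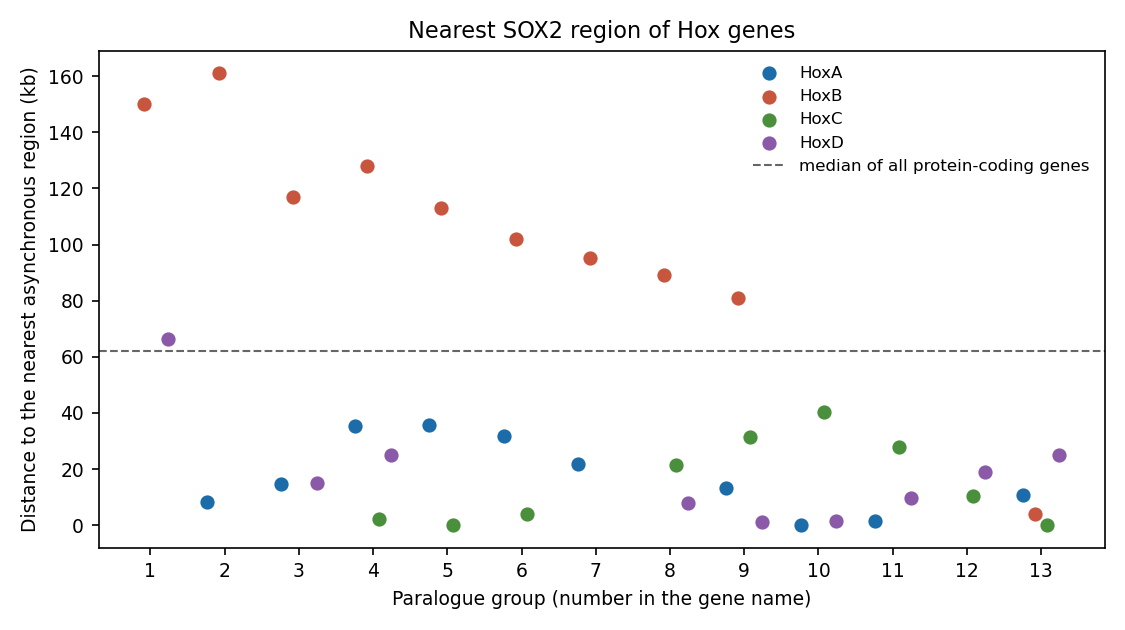
Distance in kb from Hox genes to their nearest asynchronous region, by the number in the gene name and coloured by cluster; the dashed line is the median of all protein-coding genes, 62.0 kb. Of the genes plotted, HoxB genes other than Hoxb13 lie above the line, and of the other clusters Hoxd1 (66.2 kb) does.

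Within 500 kb every Hox gene had 6 or more asynchronous regions, where 55.7% of all protein-coding genes had fewer than 6. Over all genes, 92.3% had at least 1 and the median was 5 (interquartile range 3 to 8). HoxA genes had 13 to 15, more than 96.8 to 98.7% of all genes. HoxB genes had 6 to 9, HoxC genes 7 to 8 and HoxD genes 7 to 9. For these 3 clusters, 55.7 to 82.5% of all genes had fewer. Neighbouring genes count nearly the same regions, so each cluster is close to 1 observation.

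**Figure D4:**
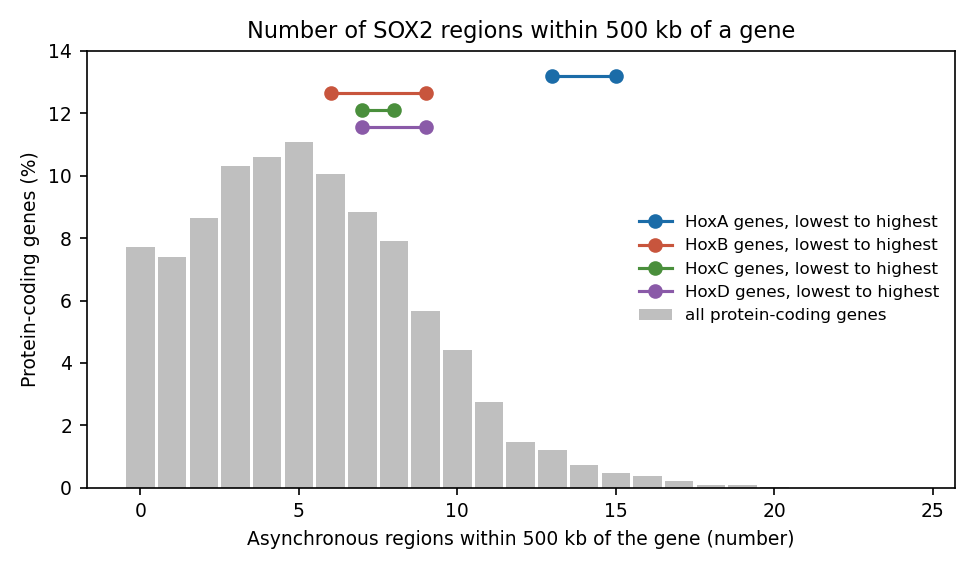
Grey bars give the percent of all protein-coding genes with a given number of asynchronous regions within 500 kb; coloured lines span the lowest to the highest gene of each Hox cluster and are set above the bars for reading, not to the scale of the vertical axis. HoxA genes, at 13 to 15 regions, lie in the tail of the bars. Genes of the other clusters, at 6 to 9, lie above the median of all genes, 5.

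The regions outside the clusters were more numerous on the side of the low-numbered genes. Over 500 kb, that side had 10 regions at HoxA against 3 beside Hoxa13, 7 at HoxB against 4, 5 at HoxC against 1 and 7 at HoxD against 1, in all 29 against 9. No test was made of this difference over 4 clusters. Among regions wider than the list's median it held at HoxA (6 against 2) and HoxD (4 against 0), was level at HoxC (1 each) and turned at HoxB (2 against 3), in all 13 against 6. Within 100 kb the counts were 4 against 2, with 2 of 4 clusters showing it. Within 1000 kb they were 42 against 25 with all 4. These counts include the 29 and 9 within 500 kb, and the regions beyond 500 kb did not add to the excess. At HoxA, the 10 regions on the low-numbered side were 3 between the cluster and Skap2, 3 inside Skap2 and 4 beyond it, the furthest 447 kb from the cluster. At HoxB, no region lay between Hoxb1 and Skap1. Inside Skap1 were 3, at 150, 254 and 365 kb from the cluster, and the other 4 followed within 435 kb, the widest of them (498 bp, 96780153 to 96780650) 2.69 kb from Snx11, a sorting nexin. At HoxD, the 7 regions lay 128 to 476 kb beyond Hoxd1, past Mtx2, a mitochondrial gene, in a stretch known as the telomeric regulatory landscape of the cluster. The widest was 545 bp, at chromosome 2, 74893134 to 74893678, and its nearest gene was Mtx2, 16.7 kb away. The opposite side, known for the enhancers of digit expression, had 1 region of the list's smallest width, 183 bp, at 74303087 to 74303269.

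**Figure D5:**
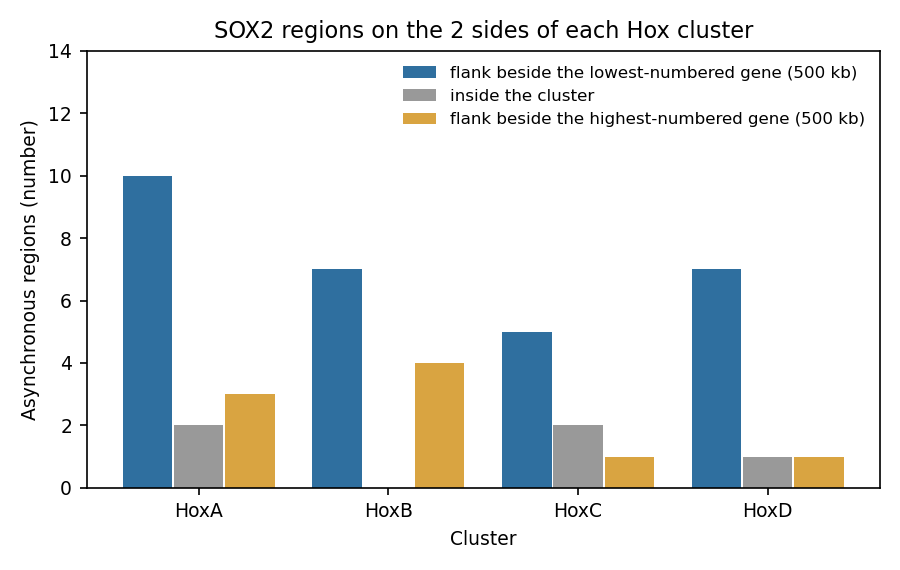
Bars give the number of asynchronous regions in the 500 kb beside the lowest-numbered gene (blue), inside the cluster (grey) and in the 500 kb beside the highest-numbered gene (yellow) for each cluster. The blue bar is the taller flank in all 4 clusters, with 29 regions against 9.

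No mitotic region lay inside a Hox cluster or within 500 kb of one. The nearest mitotic regions were 1.84 Mb from HoxB, 3.08 Mb from HoxA, 4.73 Mb from HoxC and 43.5 Mb from HoxD. Of the 39 genes, 0 had one within 50 kb, which allows up to 7.69% of them, and 0.836% of all protein-coding genes did. The share of all genes with one was 0.238% inside the gene, 0.343% within 10 kb, 0.466% within 20 kb, 1.41% within 100 kb and 5.45% within 500 kb, and it was 0 of 39 Hox genes at each. None of 84 regions leaves room for at most 3.57% of them (3 counts of the total). At the mean mitotic density on autosomes, the 4.49 Mb of these windows would hold 0.155 regions, so a loss of binding at Hox loci was not detectable with this list.

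The regions around the clusters lay at gene ends about as often as in the whole list. Of the 43, 3 (6.98%, against 7.46% of all asynchronous regions) had their midpoint within 1 kb of the end of a protein-coding gene, at Hoxa10, Hoxd9 and Skap1. A further 13 (30.2%, against 44.3%) lay inside protein-coding genes, 8 (18.6%, against 8.77%) lay outside those genes but on long noncoding RNA genes, among them Halr1 and Hoxa11os, and 19 (44.2%, against 39.5%) overlapped neither. No test was made of these shares. Widths ran from 183 to 545 bp, with a median of 297 bp against 289 bp for the whole list, and 23 of 43 were above that value. The 5 regions inside the clusters were 287 to 399 bp wide. More than 1 listed summit occurred in 2 of the 43, on Halr1 and in Skap1. The peak numbers of the list run in order along the chromosome, and 14 numbers are missing among the 43 regions (4 at HoxA, 2 at HoxB, 3 at HoxC and 5 at HoxD). Of these, 1 falls in the empty interval over HoxB and 2 fall in the stretch of 85.8 kb in HoxA. Another 2 fall in the interval of 393 kb at HoxD, so these stretches are empty only of listed regions. Over the whole asynchronous list, 5239 numbers up to the highest, 15590, are missing, so missing numbers are not particular to the Hox surroundings.

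The clusters also carry 6 microRNA genes, which act on Hox messages among others. Some of their mature sequences from RefSeq are shown, with the seed (bases 2 to 8) in capitals. In the 196 and 10 families, copies in different clusters share a seed, so that a region near 1 copy does not stand for the family. The 196 family shares AGGUAGU and the 10 family ACCCUGU. The seed of miR-615-3p, CCGAGCC, is shared with no other of these microRNAs.
mmu-miR-196b-5p: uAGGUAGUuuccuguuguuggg
mmu-miR-196a-5p: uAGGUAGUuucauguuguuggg
mmu-miR-10a-5p: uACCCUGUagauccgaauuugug
mmu-miR-10b-5p: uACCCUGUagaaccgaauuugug
mmu-miR-615-3p: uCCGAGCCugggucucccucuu
Mir615, inside Hoxc5 (chromosome 15, 103014910 to 103015001), was 0.710 kb from the region in that gene. Mir196b in HoxA was 10.1 kb from the region in Hoxa10, Mir10b in HoxD 29.1 kb from a region and Mir196a-2 in HoxC 42.3 kb. In HoxB, Mir196a-1 was 74.5 kb and Mir10a 127 kb away. The 2 genes that encode the same miR-196a-5p thus lay at different distances, 42.3 and 74.5 kb.

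RefSeq windows of 250 bases before a start were at hand for 22 of the 39 Hox genes, as 24 windows, and none overlapped a region. Of all 129 windows within 500 kb of the clusters, 2 did. The share over all genes was not computed, so neither count can be called low or high. Hoxc5 and Hoxc13, which hold a region, had no window. ACAAT on either strand stood in 5 of the 24 (20.8%), against the 27.7% given above for all genes, before Hoxa2, Hoxa3, Hoxa5, Hoxa7 and Hoxd8. ACAAAG, a related core that shares its first 4 letters, stood in 5 (20.8%, against 16.5% of all windows), before Hoxa3, Hoxa11, Hoxb1, Hoxd3 and Hoxd11. A match to so short a word is a description of the letters and not of binding.

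The genes flanking the clusters were near regions about as often as any gene: 23 of 47 (48.9%) within 50 kb, against 45.5%. Skap2 beside HoxA and its paralogue Skap1 beside HoxB, adaptors of immune cell adhesion, each held 3 regions, in genes of 153 and 295 kb. The others that held a region, 1 each, were Evx1, Igf2bp1, an RNA-binding protein, Cbx1, a heterochromatin protein, Smug1 and Pde1b, a phosphodiesterase. Of the flanking regions outside protein-coding genes, those at HoxA had Skap2 (4 regions), Hibadh and Snx10 as their nearest gene, apart from Hox genes, and those at HoxB had Skap1, Snx11, Zfp652 and Phb. At HoxC these were Smug1, Calcoco1 and Itga5, and at HoxD Mtx2, Lnpk and Gm50595.

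Genes that work with Hox genes, or are related to them, were often near a region. All 8 ParaHox and Evx genes had an asynchronous region within 50 kb (median 2 regions, against 0 for all protein-coding genes). They were near 12 distinct regions: Cdx2 and Pdx1 are neighbours that share theirs, Evx1 and Evx2 flank HoxA and HoxD, and the region of Evx2 is the one between Hoxd10 and Hoxd9. Cdx4, a ParaHox gene that activates Hox clusters, had 3, and its nearest lay 0.065 kb from the gene. Of the 9 TALE genes, which encode the partners of Hox proteins on DNA, 7 (77.8%) had one: Meis2 had 5, and Pbx3 and Pknox2 had 3 each, while Pbx4 and Meis3 had none, with their nearest 64.3 and 129 kb away. In the retinoic acid pathway it was 9 of 12 (75%), all 6 receptor genes included. Aldh1a2, which makes retinoic acid, had 3, while none lay within 50 kb of Aldh1a1, of the same function, or of Cyp26a1 and Cyp26c1, which degrade it (nearest 194, 176 and 185 kb). Chromatin regulators of Hox genes were nearer to the background, with 8 of 14 (57.1%, against 45.5% of all genes). Among them the Polycomb genes Jarid2 and Eed had 7 and 4 regions, and Kmt2a, Kmt2b and Men1, of the Trithorax group, and Rnf2, of Polycomb, had none, with their nearest 150, 75.9, 63.3 and 95.2 kb away. Bmi1, of Polycomb, and Kdm6a, a demethylase of the Polycomb mark, had none either (80.8 and 589 kb), so genes of both groups were without one. Ring1, of Polycomb, and the receptor gene Rxrb are neighbours that share their 2 regions. No gene of these lists had a mitotic region within 50 kb, where 0.836% of all protein-coding genes did. Pknox1 had 1 within 500 kb, where 5.45% of all genes did. In lists this small, a count of 0 within 50 kb allows up to 21.4 to 37.5% of the genes.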

How the data were processed

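SOX2 ChIP-seq peaks were analysed for 2 conditions with 3 ChIP and 3 input libraries each. The submitters' processing notes name mm10, MACS2, whose version is not given in the sources used here, and Bowtie2 (2.2.1). By the deposited names, the authors called peaks once per condition on pooled replicates, with tags read as q-values of 0.01 (asynchronous) and 0.05 (mitotic), and removed blacklisted regions. The deposited values are positions in bp, with no score, fold or read count; depth is unknown. Starts were converted to counting from 1, and 181 asynchronous entries with repeated coordinates were merged. Genes were RefSeq spans of GRCm38.p6 on 21 chromosomes, without strand or exons. Cluster windows counted regions by an overlap of 1 bp, gene windows by the midpoint, with Python 3.11.15, numpy 2.4.6 and pandas 2.3.3. Chromosome densities use the stretch from the first to the last gene or region. Poisson intervals came from scipy 1.17.1. Counting was tested on simulated data.

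Named genes were those with a region within 10 kb, the outer genes of each cluster, flanking genes holding or nearest to a region, and related genes with 3 or more regions or none (up to 6 a list); not every gene so chosen is reported or plotted here, and other names were chosen after their values were seen. Members and lists were chosen with earlier results of these data known. The alternatives concern duplicates, width, overlap rule, cluster ends, windows and backgrounds.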

Additional observations from a re-analysis of the deposited data

How the results depend on the processing

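Of 147 recomputed values over 25 results, 119 stayed within 1.5 times the value reported (within its 95% interval for background shares) and 28 moved. With regions wider than the median of their list only, 23 lay within 500 kb of the clusters, 13 of them on the side of the lowest-numbered gene, and 2 of 4 clusters had more on that side. Without HoxA, an alternative chosen after seeing the data like the other flank sizes, there were 3 inside the clusters, 4 within 50 kb, 28 within 500 kb and 19 on the side of the lowest-numbered gene. Both settings leave out regions by construction, so their smaller counts do not by themselves show a lower density. With flanks of 100, 200 and 1000 kb, the side of the lowest-numbered gene had 4, 9 and 42 regions and the other side 2, 3 and 25. Each wider flank contains the narrower ones. At 100 kb, 2 clusters had more on the low side. Hox genes with an asynchronous region numbered 13 within 10 kb, 19 within 20 kb and 7 when each region counted for its nearest gene alone, which at 17.9% of Hox genes against 23.1% of all genes turned the direction of the shares; fewer genes qualify by construction. Mitotic counts at the Hox genes were 0 under every setting run. No setting could change them, because the nearest mitotic region lay 1.84 Mb from a cluster and windows reached at most 500 kb. The 119 values that stayed include these zeros. No paired analysis was possible because replicates were pooled before peaks were called, and leaving out a replicate could not be run for the same reason. A stricter threshold could not be applied without scores. Depth is unknown, so regions below the callers' thresholds cannot be judged.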
